A study of Mus musculus with 7 samples.

Results

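The genes that restrain TGFβ and BMP signalling from inside the cell and from its membrane were followed in primary mouse articular chondrocytes. The 9 genes are Pmepa1, Ldlrad4 and Bambi at the membrane, Ski, Skil, Tgif1 and Tgif2 in the nucleus, and Smurf1 and Smurf2 among the ubiquitin ligases. They were taken by name from the deposited count table, and all 9 were found among its 52459 gene names. The cells came from the femoral head and were cultured in serum-containing medium, and each well received BMP2 at 100 ng/ml, TGFβ1 at 5 ng/ml or vehicle for 24 h. Of the 7 bulk RNA libraries 3 had BMP2 (replicates 1, 2 and 3), 2 received TGFβ1 (numbered 1 and 3) and 2 are vehicle controls (numbered 1 and 2). The strain, age and genotype of the mice are not given in the labels. The labels also do not say whether replicates are separate animals or cultures, and the p-values therefore measure a spread between samples that may be only technical.

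TGFβ signals mainly through SMAD2 and SMAD3, and BMP2 mainly through SMAD1, SMAD5 and SMAD9, and both branches share SMAD4. Cells limit these signals at several levels: decoy and adaptor proteins at the membrane keep SMADs or ligands away from active receptors, HECT ubiquitin ligases mark receptors and SMADs for degradation, and nuclear corepressors recruit histone deacetylases to SMAD complexes on DNA. Many such brakes are themselves transcribed in response to SMADs and so form negative feedback. In cartilage, TGFβ signalling is known to hold articular chondrocytes in a stable state, and BMP signalling to promote maturation in the growth plate.

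The depth was 6747997 to 10686885 counts with BMP2, 16271793 and 18047765 with TGFβ1, and 6885056 and 7387051 with vehicle. Levels are given as CPM, which are counts divided by the library size (after TMM scaling) on the usual per-megaread scale. Chondrocyte markers were abundant in every library: 14 of 14 were tested, and their summed level was 51349 to 58278 CPM with BMP2, 37028 to 43327 CPM with TGFβ1 and 58328 to 58414 CPM with vehicle. Most of that sum was Col2a1, which did not pass against vehicle with TGFβ1 (−0.26) or BMP2 (−0.20). With TGFβ1 10 of the 14 fell against vehicle and 0 rose (median −0.76). Those that fell include Matn1 (−2.99), Hapln1 (−2.09) and Sox9 (−1.40). With BMP2 2 rose and 1 fell (median 0.10). Among all tested genes 30.4% rose and 25.8% fell with TGFβ1, and 5.33% rose and 6.15% fell with BMP2. Rose, fell and passed refer to the test described in the next paragraph. The TGFβ1 libraries stood apart, with correlations of log2(CPM + 1) across genes of 0.829 to 0.863 with the BMP2 libraries and 0.833 to 0.860 with the vehicle libraries, beside 0.967 to 0.975 between BMP2 and vehicle libraries. Summed markers of fibroblasts (6 genes, of which 3 were tested) were 10.1 to 14.1 CPM with BMP2, 65.5 to 77.4 CPM with TGFβ1 and 15.7 to 17.1 CPM with vehicle. Of the tested ones Ly6a alone rose with TGFβ1 (61.6 CPM, against 3.85 CPM with vehicle), while Pdgfra (8.30 against 9.77 CPM) and Cd34 (0.602 against 1.25 CPM) did not pass. Summed adipocyte markers (4 genes, 1 tested) were 8.58 to 17.9, 49.9 to 57.0 and 4.81 to 8.37 CPM in the same order, with Fabp4 the tested gene. Summed pericyte and smooth muscle markers (4 genes, 1 tested) were 288 to 333 CPM with BMP2, 311 to 334 CPM with TGFβ1 and 184 to 198 CPM with vehicle, and the tested gene, Cspg4, rose by 0.75 with TGFβ1 and by 0.69 with BMP2. Summed leukocyte markers (8 genes, 3 tested, with Cd3e and Ly6g at 0 in all libraries) lay between 4.46 and 10.0 CPM, and endothelial markers (4 genes, 1 tested, with Cdh5 at 0) did not exceed 1.86 CPM. Summed osteoblast markers (4 genes, 3 tested) were 172 to 226 with BMP2, 172 to 206 with TGFβ1 and 226 to 232 CPM with vehicle. With BMP2 Sp7 rose (1.31) and Ibsp fell (−1.12), with TGFβ1 only Sp7 fell (−0.80), and Bglap passed with neither. Summed osteoclast markers (4 genes, 2 tested) were 101 to 141, 121 to 125 and 88.9 to 94.1 CPM in the same order. Of these Ctsk rose with TGFβ1 (0.42), and Acp5 passed with neither. The part of these differences in the results below was not tested.

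The words rose and fell are used of a gene where its adjusted p in edgeR's quasi-likelihood test, Benjamini-Hochberg adjusted over all 13367 tested genes, was under 0.05. Fold changes are log2 values with their standard error (SE). Of the 9 brakes 8 had enough counts to be tested. Tgif2, which encodes the smaller TGIF homeodomain corepressor, had 4, 3 and 8 counts with BMP2, 5 and 5 counts with TGFβ1 and 4 and 2 counts with vehicle. These counts stand near the floor of 3 counts used here (0.221 to 0.401 CPM depending on the library), and no difference was detectable at these counts. In the annotation 61.6% of the exon bases of Tgif2, and 74.9% of its principal transcript, lie opposite exons of other genes, mostly of 5430405H02Rik. In edgeR 5430405H02Rik rose with TGFβ1 (1.90, SE 0.41, adjusted p = 0.00257) and did not pass with BMP2 (−0.19). Whether counting used strand is not stated by the labels or the file, and a loss of Tgif2 reads to this overlap was not tested.

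With TGFβ1, 4 of the 8 tested brakes rose against vehicle (Pmepa1, Ldlrad4, Skil and Smurf2), Bambi fell, and Ski, Tgif1 and Smurf1 did not pass the test. Among all tested genes 30.4% rose and 25.8% fell, 56.2% in all, so 5 called of 8 is near the share over all genes. With upper-quartile scaling 3498 genes rose and 4587 fell, against 4067 and 3450 with TMM, and the median over all genes moved to −0.20. With BMP2, 4 of 8 rose against vehicle (Pmepa1, Bambi, Skil and Smurf2) and 0 fell, where 5.33% of all tested genes rose and 6.15% fell (11.5% in all). Of these 4, Skil and Smurf2 lost their call in several alternatives. Between the ligands, Bambi was higher with BMP2 than with TGFβ1, and Pmepa1, Ldlrad4, Skil and Smurf2 were lower, beside 28.1% and 33.3% of all tested genes (61.4% in all). Upper-quartile scaling gave 4628 higher and 3919 lower with BMP2, against 3750 and 4456 with TMM, and a median of 0.14. The median fold change over the 8 members was 0.50 for TGFβ1 against vehicle, 0.39 for BMP2 against vehicle and −0.23 for BMP2 against TGFβ1, beside medians over all tested genes of −0.02, 0.00 and −0.02. The libraries of the groups did not overlap for 6 of the 8 tested members for TGFβ1 against vehicle, 5 for BMP2 against vehicle and 6 for BMP2 against TGFβ1. The shares of all tested genes were 80.1%, 44.6% and 73.7% in the same order. The comparisons share libraries, so their values are set side by side and not correlated. The members were chosen with earlier results of these data known, so their counts beside these shares are a description.

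**Figure D1:**
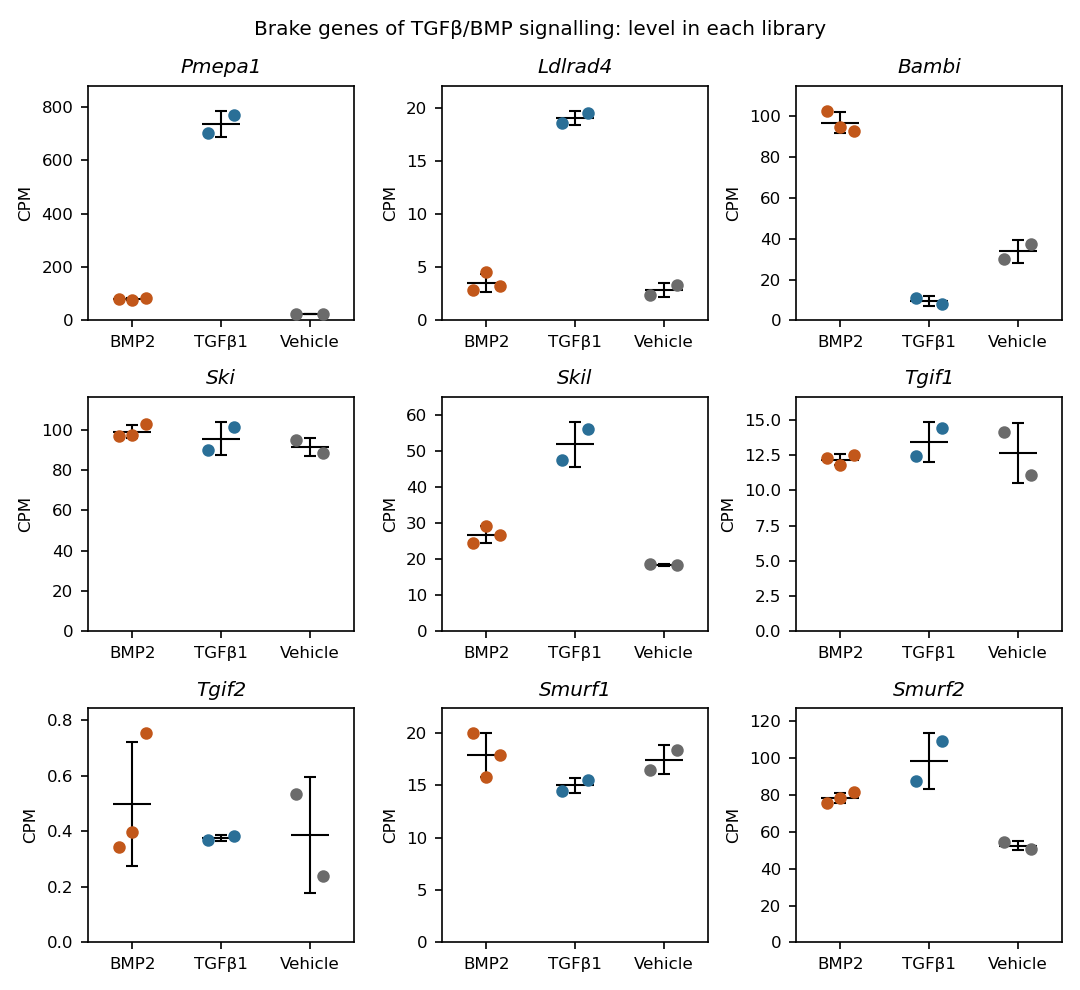
Level of each of the 9 genes in CPM (vertical axis, linear and starting at 0) in the BMP2, TGFβ1 and vehicle libraries; points are libraries, and the horizontal bar and whiskers are the mean and SD (n = 3, 2 and 2). Pmepa1 lies at 703 and 771 CPM with TGFβ1 and under 83 CPM in every other library, and Bambi is highest with BMP2 and lowest with TGFβ1.

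Pmepa1 encodes a membrane protein that binds SMAD2 and SMAD3 and NEDD4-family ubiquitin ligases and so keeps SMADs from activated receptors. It lies on chromosome 2 (173224458 to 173276533, minus strand, mm10), with a principal transcript of 4 exons and 4538 nt. Its level was 81.9, 77.3 and 82.5 CPM with BMP2, 703 and 771 CPM with TGFβ1, and 22.5 and 22.6 CPM with vehicle. The 3 groups did not overlap, and the vehicle libraries were nearly equal. The fold change was 5.03 with TGFβ1 against vehicle (SE 0.15, adjusted p = 1.07e-08) and 1.84 with BMP2 against vehicle (SE 0.13, adjusted p = 2.47e-05). BMP2 stood below TGFβ1 by a fold change of −3.19 (SE 0.11, adjusted p = 3.90e-09). With TGFβ1, Pmepa1 had the 109th largest fold change of 13367 genes, and with BMP2 the 195th. In this bulk RNA, a change in the number of cells that make a transcript and a change in the amount per cell cannot be told apart.

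Ldlrad4, a paralog of Pmepa1 that likewise holds SMAD2 and SMAD3 back at the membrane, was a low-level gene on chromosome 18. It had 2.83, 4.51 and 3.20 CPM with BMP2 (33, 34 and 34 counts), 18.5 and 19.5 CPM with TGFβ1 (252 and 255 counts) and 2.41 and 3.35 CPM with vehicle (18 and 28 counts). The TGFβ1 libraries were above all others, and BMP2 and vehicle overlapped. Ldlrad4 rose with TGFβ1 by 2.71 (SE 0.24, adjusted p = 5.65e-06). With BMP2 it did not pass against vehicle (0.24, SE 0.27, adjusted p = 0.636, 95% interval −0.36 to 0.84). The difference between the ligands was itself called, at −2.47 for BMP2 against TGFβ1 (SE 0.20, adjusted p = 1.81e-06). The deposited length of Ldlrad4 is 2493 nt, close to its principal transcript of 2495 nt, while the union of its annotated exons holds 5371 bases, of which 52.1% lie opposite Fam210a. The principal transcript shares 0 bases with genes of the other strand. Fam210a moved the other way with TGFβ1, at 21.3 and 21.5 CPM beside 32.8 and 27.6 CPM with vehicle (−0.50, SE 0.15, adjusted p = 0.0170).

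Bambi encodes a pseudoreceptor that resembles a type I receptor without its kinase domain and blocks receptor complexes of both branches. It also lies on chromosome 18 and was the member that passed the test in opposite directions for the 2 ligands. Its level was 103, 94.9 and 92.8 CPM with BMP2, 11.1 and 7.86 CPM with TGFβ1, and 30.0 and 37.7 CPM with vehicle. The groups did not overlap in any comparison. Bambi rose with BMP2 by 1.52 (SE 0.16, adjusted p = 1.97e-04) and fell with TGFβ1 by 1.83 on the log2 scale (SE 0.18, adjusted p = 1.31e-05), each against vehicle. BMP2 stood above TGFβ1 by 3.35 (SE 0.17, adjusted p = 5.80e-08), which was the 115th highest of 13367 fold changes in that comparison. The counts behind the TGFβ1 libraries were 151 and 103.

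Bambi had more counts than Pmepa1 in the BMP2 and vehicle libraries, and Pmepa1 had more in the TGFβ1 libraries. Of the counts of both genes together, Pmepa1 held 44.4%, 44.9% and 47.0% with BMP2, 98.4% and 99.0% with TGFβ1, and 42.9% and 37.5% with vehicle. The exact binomial 95% intervals, which cover counting error only, ran from 42.2% to 49.3% over the BMP2 libraries, from 98.2% to 99.2% over the TGFβ1 libraries and from 33.3% to 47.9% over the vehicle libraries. The log2 ratio of Pmepa1 to Bambi counts was 6.88 higher with TGFβ1 than with vehicle and 0.31 higher with BMP2 than with vehicle. The shares of the TGFβ1 libraries lay far above those of the other 5, and BMP2 and vehicle did not overlap but differed little. An exact 2-sided permutation test of the ratio gave p = 0.333 for TGFβ1 against vehicle and p = 0.2 for BMP2 against vehicle, the smallest values these group sizes allow. Such a ratio does not depend on how libraries are scaled.

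**Figure D2:**
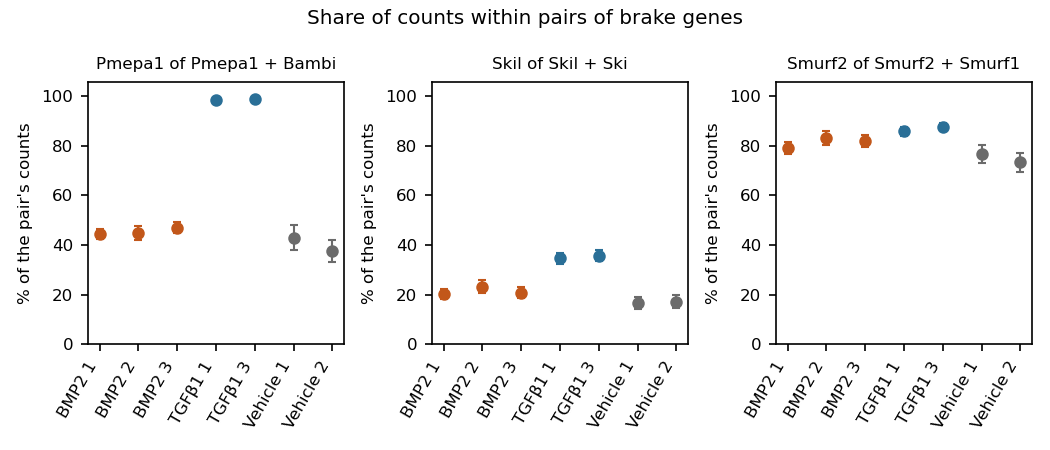
Share of counts, in percent, that the first gene holds of a pair (Pmepa1 with Bambi, Skil with Ski, Smurf2 with Smurf1) in each library; whiskers are exact binomial 95% intervals. Pmepa1 holds 98.4% and 99.0% of its pair with TGFβ1, and Skil 34.6% and 35.7%, above the other libraries in each case.

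Ski and Skil encode corepressors that bind SMAD2, SMAD3 and SMAD4 and recruit NCOR and histone deacetylases, and the proteins are degraded when TGFβ signals. Ski lies on chromosome 4 (155154075 to 155222592, minus strand) and Skil on chromosome 3 (31095058 to 31122577, plus strand). Skil had 24.4, 29.3 and 26.8 CPM with BMP2, 47.5 and 56.3 CPM with TGFβ1, and 18.7 and 18.3 CPM with vehicle. The order was TGFβ1, BMP2, vehicle, with no overlap between any groups. Skil rose by 1.49 with TGFβ1 (SE 0.14, adjusted p = 1.07e-05) and by 0.53 with BMP2 (SE 0.14, adjusted p = 0.0302), and BMP2 stood below TGFβ1 (−0.95, SE 0.12, adjusted p = 6.63e-05). The BMP2 rise was near the threshold: it did not pass in DESeq2 (0.56, adjusted p = 0.0511) or with the replicate number as a block in the fit (0.51). It also did not pass without BMP2 replicate 2 (0.47) or 3 (0.53), or without vehicle replicate 1 (0.55) or 2 (0.52). Without BMP2 replicate 1 (0.60) it passed.

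After TMM scaling, Ski was at a high and even level. It had 96.9, 97.2 and 103 CPM with BMP2, 89.8 and 101 CPM with TGFβ1, and 94.7 and 88.3 CPM with vehicle. The libraries of BMP2 and TGFβ1 overlapped, as did those of TGFβ1 and vehicle, and those of BMP2 lay just above those of vehicle. No difference passed the test, and the 95% intervals were −0.20 to 0.33 for TGFβ1 against vehicle, −0.13 to 0.36 for BMP2 against vehicle and −0.19 to 0.29 for BMP2 against TGFβ1. A change in Ski of more than 0.36 on the log2 scale lies outside all 3 intervals, which take the TMM scaling as given. The TMM factors were 0.755 and 0.806 for the TGFβ1 libraries and 1.09 to 1.13 for the others. In TPM, without TMM, Ski averaged 24.6 with BMP2, 18.7 with TGFβ1 and 23.0 with vehicle, so its evenness depends on the scaling. Skil held 20.1%, 23.2% and 20.7% of the counts of Ski and Skil together with BMP2, 34.6% and 35.7% with TGFβ1, and 16.5% and 17.2% with vehicle. The share of Skil was thus higher in every TGFβ1 library than in any other library. The log2 ratio of Skil to Ski counts was 1.42 higher with TGFβ1 than with vehicle (exact 2-sided permutation p = 0.333, the smallest possible) and 0.42 higher with BMP2 than with vehicle (exact p = 0.2, the smallest possible).

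Tgif1 encodes a TALE homeodomain corepressor that binds SMAD2 and SMAD3, and lies on chromosome 17 (70844205 to 70853546, minus strand). It had 12.3, 11.8 and 12.5 CPM with BMP2, 12.4 and 14.4 CPM with TGFβ1, and 14.2 and 11.1 CPM with vehicle. All groups overlapped. The fold changes were 0.09 for TGFβ1 against vehicle, −0.05 for BMP2 against vehicle and −0.14 for BMP2 against TGFβ1, and none passed in edgeR (adjusted p = 0.669, 0.894 and 0.449). The 95% intervals reached from −0.28 to 0.46, from −0.40 to 0.30 and from −0.47 to 0.19, so changes of these sizes cannot be told from no change here.

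Smurf1 and Smurf2 encode related HECT ubiquitin ligases. SMURF1 is known for degrading SMAD1 and SMAD5, and both are led by SMAD7 to TGFβ receptors. Smurf2 lies on chromosome 11 (106820066 to 106920715, minus strand) and Smurf1 on chromosome 5 (144876495 to 144965847, minus strand). Their promoters are shown because, among the members with a promoter window, Smurf2 passed the test in every comparison and Smurf1 in none. Both results changed in some alternatives, as given below. Ski is added as another member for which no difference passed. Each window runs from 250 bases before to 50 after the RefSeq start (GRCm38.p6), in lower case, on the gene's strand from 5′ to 3′. Capitals mark CAGAC, the core of SMAD3 and SMAD4 binding sites, or its reverse complement, and GGCGCC, a GC-rich SMAD site found in BMP-responsive enhancers.
Smurf2 (chr11:106920666-106920965): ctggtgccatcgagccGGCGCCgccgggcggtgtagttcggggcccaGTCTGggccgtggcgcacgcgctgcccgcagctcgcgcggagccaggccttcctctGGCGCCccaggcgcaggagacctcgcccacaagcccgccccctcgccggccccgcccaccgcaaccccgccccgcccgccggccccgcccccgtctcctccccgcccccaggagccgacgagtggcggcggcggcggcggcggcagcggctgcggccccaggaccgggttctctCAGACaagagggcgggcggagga
Smurf1 (chr5:144965781-144966080): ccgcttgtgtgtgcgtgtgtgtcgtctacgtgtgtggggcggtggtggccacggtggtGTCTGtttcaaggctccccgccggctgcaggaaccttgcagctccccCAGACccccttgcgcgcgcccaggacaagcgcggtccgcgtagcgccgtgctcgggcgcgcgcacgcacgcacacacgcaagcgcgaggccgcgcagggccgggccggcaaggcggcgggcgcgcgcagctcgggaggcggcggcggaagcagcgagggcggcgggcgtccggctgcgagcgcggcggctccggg
Ski (chr4:155222486-155222785): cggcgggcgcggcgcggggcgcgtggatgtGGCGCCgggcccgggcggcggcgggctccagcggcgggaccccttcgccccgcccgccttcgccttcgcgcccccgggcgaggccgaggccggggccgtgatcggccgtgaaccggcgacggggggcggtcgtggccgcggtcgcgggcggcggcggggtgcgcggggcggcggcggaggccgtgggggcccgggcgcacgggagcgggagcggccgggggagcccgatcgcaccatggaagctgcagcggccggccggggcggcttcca

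On both strands, the Smurf2 window held CAGAC at −203 and 28 and GGCGCC at −234 and −147, counted from the start of transcription as 1 by the first base of the match. The Smurf1 window held CAGAC at −192 and −145 and no GGCGCC, and the Ski window held GGCGCC at −220 and no CAGAC. No 2 matches overlapped. The palindrome GTCTAGAC and the TGIF core CTGTCA were in none of these 3 windows. Of 32851 promoter windows of the same length, 49.6% held CAGAC, 11.9% GGCGCC, 19.2% CTGTCA and 0.213% GTCTAGAC. Of the 5 windows of Tgif1, 3 held CAGAC, 2 held CTGTCA and 0 held GGCGCC, and the window of Tgif2 held 0 of these motifs. No window was available for Pmepa1, Skil, Ldlrad4 and Bambi, of which Pmepa1, Skil and Bambi also passed the test in every comparison. These windows are rich in G and C, with 80.3% for Smurf2, 76.3% for Smurf1 and 85.3% for Ski, beside a median of 52.7% over all windows. A match describes the letters and shows no binding.

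Smurf2 had 75.9, 78.4 and 81.5 CPM with BMP2, 87.8 and 109 CPM with TGFβ1, and 54.3 and 50.8 CPM with vehicle. Every treated library was above both vehicle libraries, and the TGFβ1 libraries differed from each other. Smurf2 rose with TGFβ1 by 0.91 (SE 0.13, adjusted p = 2.33e-04) and with BMP2 by 0.58 (SE 0.12, adjusted p = 0.0134). The BMP2 rise did not pass without BMP2 replicate 3 (0.55), without vehicle replicate 1 (0.63) or without vehicle replicate 2 (0.54). It also did not pass with the replicate number as a block in the fit. BMP2 stood below TGFβ1 by −0.33 (SE 0.12, adjusted p = 0.0346), a call that was lost in 11 of 16 alternatives, among them DESeq2 (−0.30, adjusted p = 0.0987) and the fit without TGFβ1 replicate 3 (−0.17). Over all 16 alternatives this value ran from −0.48 to −0.17. In TPM, without TMM, Smurf2 averaged 17.6 with BMP2 and 17.4 with TGFβ1.

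Smurf1 had 20.0, 15.8 and 17.9 CPM with BMP2, 14.5 and 15.5 CPM with TGFβ1, and 16.4 and 18.4 CPM with vehicle. Its TGFβ1 libraries were the lowest 2 of the 7, and its BMP2 and vehicle libraries overlapped. The fold change was −0.22 with TGFβ1 against vehicle (SE 0.16, adjusted p = 0.256, 95% interval −0.57 to 0.13) and 0.04 with BMP2 against vehicle (SE 0.14, adjusted p = 0.896, 95% interval −0.28 to 0.36). BMP2 against TGFβ1 gave 0.26 (SE 0.14, adjusted p = 0.131). With upper-quartile scaling, which moves the median of all genes for TGFβ1 against vehicle to −0.20, Smurf1 passed at −0.40 (adjusted p = 0.0469), and for BMP2 against TGFβ1 at 0.42 (adjusted p = 0.0232). Smurf2 held 79.2%, 83.2% and 82.0% of the counts of both Smurf genes with BMP2, 85.8% and 87.6% with TGFβ1, and 76.7% and 73.4% with vehicle. The groups did not overlap, and the log2 ratio was 1.11 higher with TGFβ1 and 0.55 higher with BMP2 than with vehicle (exact 2-sided permutation p = 0.333 and 0.2, the smallest possible).

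**Figure D3:**
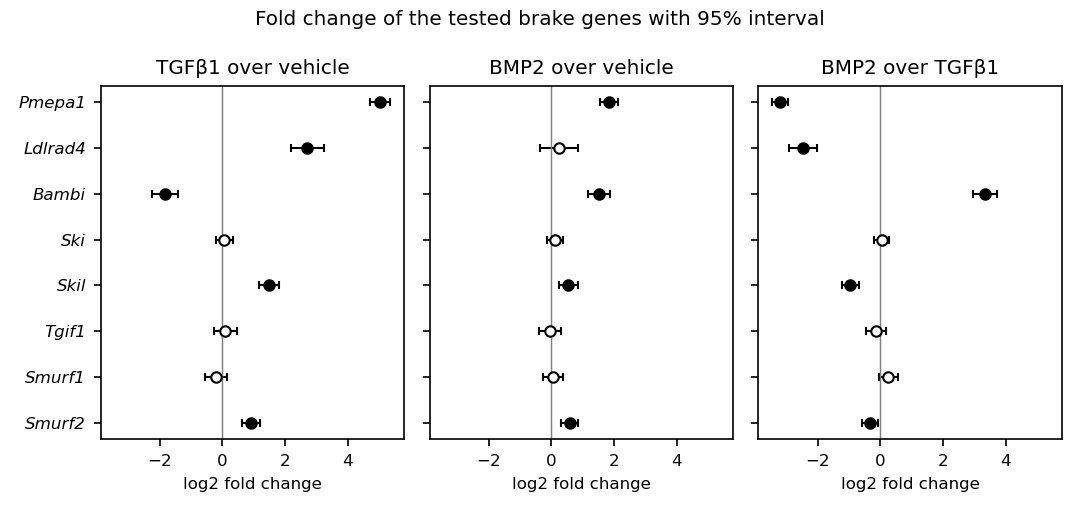
Log2 fold change (horizontal axis) of the 8 tested brakes for TGFβ1 over vehicle, BMP2 over vehicle and BMP2 over TGFβ1, with 95% intervals from the edgeR fit; filled circles passed an adjusted p of 0.05 and open circles did not. Bambi lies at −1.83, 1.52 and 3.35 and Pmepa1 at 5.03, 1.84 and −3.19, while Ski and Tgif1 lie within 0.14 of 0 in every panel.

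Genes can be compared in level only per length. As CPM per kb of the deposited gene length, the 9 brakes summed to 75.5 ± 1.04 with BMP2 (SD, n = 3), 203 ± 14.4 with TGFβ1 (n = 2) and 44.4 ± 0.0871 with vehicle (n = 2). Ski was the highest member with vehicle, with 16.4 ± 0.814 CPM per kb, followed by Smurf2 (8.53 ± 0.396), Bambi (6.71 ± 1.08) and Pmepa1 (4.59 ± 0.0204). With TGFβ1, Pmepa1 led with 150 ± 9.69 CPM per kb, followed by Ski (17.2 ± 1.46), Smurf2 (15.99 ± 2.45) and Ldlrad4 (7.62 ± 0.264), and Bambi stood at 1.88 ± 0.455. With BMP2, Bambi (19.2 ± 1.02), Ski (17.8 ± 0.616) and Pmepa1 (16.4 ± 0.580) stood close together.

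Put as shares of the summed level, Pmepa1 made up 21.7% ± 0.475 with BMP2, 74.0% ± 0.478 with TGFβ1 and 10.3% ± 0.0662 with vehicle. Ski made up 23.6% ± 0.661, 8.46% ± 0.119 and 37.0% ± 1.76 in the same order, although its own level did not pass any test. Bambi made up 25.5% ± 1.34, 0.938% ± 0.291 and 15.1% ± 2.47, Smurf2 16.9% ± 0.582, 7.86% ± 0.649 and 19.2% ± 0.855, and Skil 3.67% ± 0.375, 2.63% ± 0.127 and 4.30% ± 0.0605. Skil shows the difference between a level and a share: its level per kb was highest with TGFβ1 and its share lowest there. These levels depend on the length used: the principal transcript is 2904 nt for Skil and 3125 nt for Smurf2, beside deposited lengths of 9694 and 6162 nt. Per kb of principal transcript, Smurf2 was the highest member with BMP2 (25.1 ± 0.888), stood next after Pmepa1 with TGFβ1 (31.5 ± 4.83) and was level with Ski with vehicle (16.8 ± 0.782 and 16.6 ± 0.819).

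**Figure D4:**
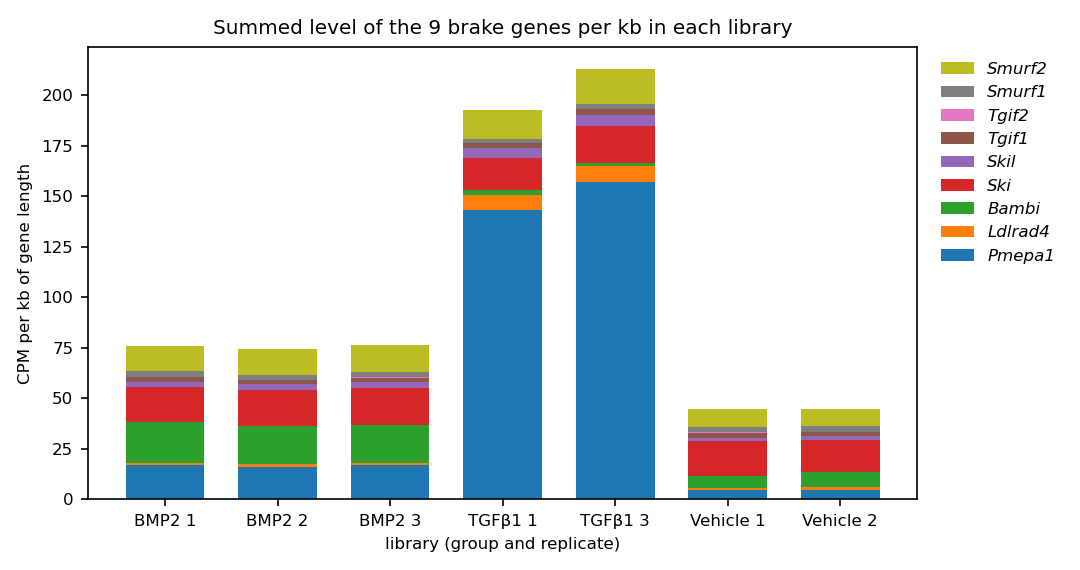
Stacked level of the 9 brakes in each library, in CPM per kb of the deposited gene length (vertical axis, starting at 0). The stacks average 75.5 with BMP2, 203 with TGFβ1 (most of it Pmepa1) and 44.4 with vehicle.

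Genes of similar profile were sought among 9665 tested genes whose mean CPM was 2 or more on the log2 scale, leaving out Gm, Rik and clone names. For each tested brake, the 2 genes closest over the 7 libraries were found by the root mean square difference of centred log2(CPM + 1). For Pmepa1 these were Lgr6 and Tnfrsf12a, at differences of 0.27 and 0.34. Lgr6 averaged 40.5 CPM with BMP2, 262 CPM with TGFβ1 and 11.5 CPM with vehicle. For Bambi they were Slc8a3 and Rarres1 (0.21 and 0.24), and Rarres1 averaged 41.3 CPM with BMP2, 3.37 CPM with TGFβ1 and 9.77 CPM with vehicle. For Skil they were Bhlhe40 and Wisp1 (0.034 and 0.10), and Bhlhe40 averaged 35.3, 65.8 and 24.4 CPM in the same order. Those of Ldlrad4 were Actr6 and Cnot4 (0.11 and 0.12), and those of Smurf2 Rcc1 and Smim3 (0.072 and 0.084). The even profiles of Ski (Phf23 and Rad54l2, both at 0.04 after rounding), Tgif1 (Dynll2 and Tfe3) and Smurf1 (Tmem57 and Lzts2) had close matches, as any gene with small differences has. The 7 libraries fall into 3 groups and share those differences, so likeness here is a description.

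The inhibitory SMADs, which block receptors and bring SMURF proteins to them, were read beside the brakes. Smad7 averaged 79.5 CPM with BMP2, 25.9 CPM with TGFβ1 and 15.9 CPM with vehicle, and rose against vehicle by 2.32 with BMP2 (SE 0.13) and by 0.70 with TGFβ1 (SE 0.14). Smad6, which acts mainly on the BMP branch, averaged 59.9, 13.8 and 25.5 CPM in the same order, with a rise of 1.24 with BMP2 (SE 0.11) and a fall of −0.88 with TGFβ1 (SE 0.12). Smad6 thus had the same directions as Bambi. Both were higher with BMP2 than with TGFβ1, Smad6 by 2.12 and Smad7 by 1.62.

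Counts for other parts of the pathway stand beside 30.4% of all tested genes that rose and 25.8% that fell with TGFβ1 (56.2% in all), and 5.33% and 6.15% with BMP2 (11.5% in all). With TGFβ1, the 5 of 10 receptors and 9 of 14 repressor partners called are near that share. Of 6 core SMADs 0 rose and 5 fell with TGFβ1, Smad9 most (−2.65), then Smad1 (−0.78), and with BMP2 Smad9 rose (0.62) and Smad3 fell (−0.45). Of 18 other ubiquitin enzymes of the pathway 4 rose and 10 fell with TGFβ1, with Otub1 (1.17), a deubiquitinase, and Nedd4l (−1.17), a HECT ligase like the SMURFs, at the ends. With BMP2, Wwp1 (0.46) and Usp4 (0.46) rose and 0 fell. Of 18 phosphatases and receptor or SMAD adaptors 5 rose and 8 fell with TGFβ1. The largest changes were those of Tob1 (−1.39), an inhibitor of BMP SMADs, and Cd109 (−1.31), a TGFβ co-receptor. With BMP2, 2 rose and 3 fell, led by Dab2 (−1.59) and Tmeff1 (1.31).

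Of 14 partners in SKI, SKIL and TGIF repressor complexes 2 rose and 7 fell with TGFβ1, led by Zeb2 (−1.07) and Hipk2 (−1.07), and with BMP2 Hdac4 (0.59) rose and Hipk2 (−0.61) fell. Of 10 tested receptor genes (of 12) 1 rose and 4 fell with TGFβ1, led by Tgfbr1 (−0.96) and Tgfbr3 (−0.90), and 1 rose and 2 fell with BMP2, led by Tgfbr3 (−1.94) and Tgfbr2 (−0.93). The median fold changes with TGFβ1 were −0.71 for core SMADs, −0.43 for ubiquitin enzymes, −0.38 for phosphatases and adaptors, −0.36 for repressor partners and −0.37 for receptors, beside −0.02 over all tested genes. With BMP2 they were −0.12, 0.07, 0.06, −0.09 and −0.10, beside 0.00. Genes as long as the tested brakes (2493 to 9694 nt, 8742 genes) had a median of −0.11 with TGFβ1 and 0.01 with BMP2 against vehicle.

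Of 20 genes of the SMAD2/3 response 16 rose with TGFβ1 and 1 fell, led by Il11 and Adam12 (5.04). Il11 averaged 1.73 CPM with BMP2, 97.6 CPM with TGFβ1 and 0.306 CPM with vehicle, where the mean is below the level of 3 counts in either library, so no fold against vehicle is given. These response lists were chosen with results of these data known and are a description. Of 18 genes of the SMAD1/5 response 11 rose with BMP2 and 1 fell, led by Dlx2 (4.33) and Dlx3 (4.004). Both averaged 0.633 CPM with vehicle, where 3 counts are 0.401 and 0.359 CPM. In the other pairings, 9 SMAD2/3 genes rose and 2 fell with BMP2, led by Junb (2.43) and Il11, and 3 SMAD1/5 genes rose and 8 fell with TGFβ1, led by Hey1 (−3.34) and Dlx5 (−2.58).

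**Figure D5:**
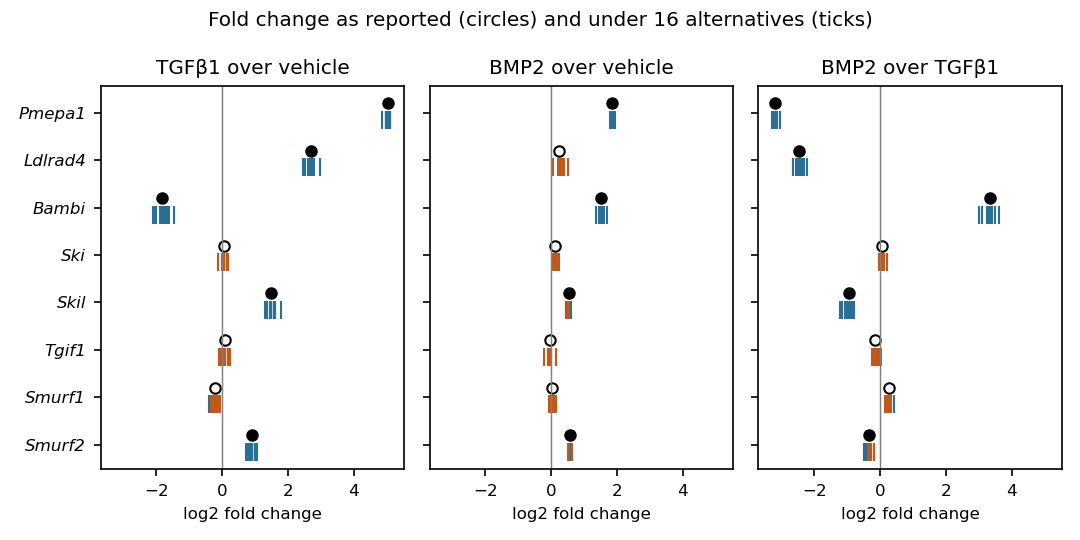
Log2 fold change (horizontal axis) of the 8 tested brakes as reported (circles, filled where called) and under 16 alternative analyses (ticks, blue where called and orange where not). Pmepa1, Bambi, Ldlrad4 with TGFβ1 and Skil with TGFβ1 stay on one side of 0 and called throughout, and the ticks of Smurf2 for BMP2 over TGFβ1 run from −0.48 to −0.17, mostly not called.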

How the data were processed

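Bulk RNA sequencing of 7 libraries was analysed. The deposited table holds counts per gene name and a gene length. The mm10 build and the tools STAR 2.4.2a, featureCounts, Subread, cutadapt and DESeq2 are named in the submitters' processing notes without saying what each did. How the authors treated strand and reads with several matches, and which annotation they used, is not stated there. Counts deposited by the authors were whole numbers with differing totals and were treated as raw. They were tested in edgeR 4.0.16 (R 4.3.3) with filterByExpr, TMM, 1 quasi-likelihood fit over all 7 libraries (4 residual degrees of freedom, common biological coefficient of variation 0.133), 2-sided tests and Benjamini-Hochberg adjustment over 13367 genes, and the fit was checked on simulated counts. DESeq2 1.42.0 was an alternative. The deposited gene length equals the union of annotated exons for 7 of the 9 members. Positions and transcripts come from GENCODE M21 (GRCm38, which is mm10), and promoters from RefSeq (5 of 9 members matched). The length offset uses lowess trends per library on the deposited length (span 0.15), and the length and GC offset adds GC content (span 0.3) of principal transcripts, with 3 iterations. Named are all members, Smad6, Smad7, up to 2 called genes of largest change per pathway list (those of BMP2 against TGFβ1 are given in the closing section), and 2 genes of like profile per member. Fam210a and 5430405H02Rik are named outside this rule, for their overlap with members. The members and lists were chosen with earlier results of these data known. Ccn2 is in the file as Ctgf.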

Additional observations from a re-analysis of the deposited data

How the results depend on the processing

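Of 24 fold changes of members under 16 alternatives each (384 pairs), 346 kept direction and call, 21 lost the call, 2 gained it and 15 turned direction, all of these 15 not called either way. The lost calls were 6 for Skil and 4 for Smurf2 with BMP2 against vehicle and 11 for Smurf2 with BMP2 against TGFβ1; the causes were not tested. For TGFβ1 against vehicle, Ski turned to −0.12 with upper-quartile scaling and −0.012 with the replicate block, and Tgif1 to −0.094, −0.034 and, with the length and GC offset, −0.037. Without 1 replicate, Ski ran from −0.020 to 0.15 and Tgif1 from −0.081 to 0.23. For BMP2 against vehicle, Tgif1 turned to 0.0087 with the length offset, and without 1 replicate Tgif1 ran from −0.21 to 0.14 and Smurf1 from −0.048 to 0.13. For BMP2 against TGFβ1, Ski turned to −0.029 among genes of at least 2000 nt and ran from −0.037 to 0.14 without 1 replicate, and Tgif1 turned to 0.020 with upper-quartile scaling. Leaving out 1 replicate, 557 (without vehicle replicate 2) to 1698 genes were called for BMP2 against vehicle, beside 1535 with all libraries (981 without BMP2 replicate 3, 671 without vehicle replicate 1), with 2 to 4 members called. For TGFβ1 against vehicle 6094 to 7894 genes and 5 members were called, and for BMP2 against TGFβ1 6888 to 8331 genes and 4 to 5 members. Where a group was left with 1 sample, it is assumed to vary like the others.

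Deviations from the group mean correlated at −0.21 to −0.02 between same-numbered libraries and at −0.17 to 0.21 between differently numbered ones. In a group of 2 the deviations mirror each other, so these values cannot decide whether the samples were paired. The main fit did not take the numbers as pairs. With the replicate block, 771 genes and 2 members (Pmepa1 and Bambi) were called for BMP2 against vehicle, and in edgeR Skil (0.51, adjusted p = 0.115) and Smurf2 (0.52, adjusted p = 0.0915) lost their calls. Per kb of principal transcript, shares of the summed level with BMP2, TGFβ1 and vehicle were 17.5%, 65.1% and 7.80% for Pmepa1, 17.7%, 6.93% and 26.0% for Ski, 9.11%, 7.14% and 10.0% for Skil and 24.8%, 12.6% and 26.4% for Smurf2, and 18.8% with BMP2 and 10.5% with vehicle for Bambi. Low counts limit Tgif2 and, with 18 to 34 counts with BMP2 or vehicle, Ldlrad4.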

Other observations

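In the comparison of the ligands 28.1% of all tested genes were higher and 33.3% lower with BMP2 (61.4% in all), and counts near these shares say little of a list. Between the ligands, 4 of 6 core SMADs were higher with BMP2 than with TGFβ1 and 0 were lower, led by Smad9 (3.27) and Smad2 (0.91). Of 18 other ubiquitin enzymes 9 were higher and 4 lower with BMP2, led by Wwp1 (1.34) and Usp15 (−1.22), and of 18 phosphatases and adaptors 9 were higher and 4 lower, led by Cd109 (1.29) and Tob1 (1.00). Of 14 repressor partners 6 were higher and 3 lower, led by Zeb2 (0.94) and Zeb1 (−0.76), and of 10 tested receptors 4 were higher and 4 lower, led by Bmpr2 (1.28) and Tgfbr3 (−1.03). Of the response genes, 2 of 20 for SMAD2/3 were higher and 14 lower with BMP2, led by Il11 (−5.85) and Nox4 (−5.83), and 14 of 18 for SMAD1/5 were higher and 0 lower, led by Hey1 (6.43) and Nog (5.12).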
